A study of Homo sapiens with 4 samples.

Results

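The genes described here encode 37 proteins of homologous recombination and of the Fanconi anaemia pathway, chosen by symbol from a named list. All 37 were found among the 58051 genes of a table of whole-number read counts, and all 37 passed the filter on low counts that left 17304 genes for testing. The RNA was polyadenylated and came from IGROV1, a long-established line from a human ovarian carcinoma. The counts cover 2 libraries of a cisplatin-resistant (CR) line and 2 libraries of the wild-type (WT), cisplatin-susceptible line from which it was selected. CR cells were obtained by exposing WT cells to cisplatin for 4 hours and returning them to drug-free medium for 3 weeks, with the concentration raised over 6 cycles in 5 months. Both lines were harvested in log-phase growth in normal medium without drug, so the comparison concerns the drug-free level of repair transcripts. Each group is 1 line, and its replicates show the spread between cultures of that line, not between independent selections.

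Cisplatin makes crosslinks within and between DNA strands. A crosslink between the strands stops the replication fork, and the Fanconi anaemia proteins recognise the stalled fork. A core complex with a ubiquitin ligase then attaches ubiquitin to the FANCI-FANCD2 pair, which brings nucleases that unhook the crosslink. The break this leaves is trimmed to single-stranded DNA and repaired by homologous recombination, in which BRCA1, PALB2 and BRCA2 act in turn. Ovarian carcinomas with defects in these genes are known for sensitivity to platinum drugs.

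The 4 libraries held 23886257 to 24727362 counts, and the 37 genes together took 0.197% and 0.196% of the counts in CR replicates 1 and 2, against 0.152% and 0.181% in WT replicates 1 and 2. Of 8 markers of an ovarian carcinoma line 7 passed the low-count filter, and the list summed to 2504 and 2666 CPM in CR and 5164 and 3544 CPM in WT. Levels are given as counts divided by the scaled library size (CPM). PAX8, the Mullerian transcription factor, had 399 and 395 CPM in CR and 546 and 286 CPM in WT, and EPCAM, an epithelial adhesion protein, had 194 and 224 CPM in CR and 113 and 118 CPM in WT. The gene WT1, a transcription factor of serous ovarian tumours, had 4 and 0 counts in CR and 20 and 8 counts in WT. Of the 7 tested markers EPCAM rose and 4 fell in CR, while the groups overlapped for PAX8. KRT19, a keratin also on the list, is not given here. KRT7, an epithelial keratin, had 5.26 and 4.79 CPM in CR and 539 and 252 CPM in WT (edgeR adjusted p = 0.00031). KRT8, KRT18 and MUC16 fell with log2 fold changes of -1.37, -0.81 and -2.66, KRT8 still at 628 CPM on average in CR and 1622 CPM in WT. The 4 leukocyte markers summed to 0.214 to 0.654 CPM over the libraries and none was tested. The 3 endothelial markers summed to 29.8 to 33.4 CPM in CR and 67.0 to 85.3 CPM in WT, and did not move together: CDH5 had 0.955 and 1.02 CPM in CR and 41.7 and 46.4 CPM in WT, PECAM1 had 3.78 and 3.27 CPM in CR and 0.129 and 0.335 CPM in WT, and VWF overlapped. The 4 fibroblast markers summed to 1.59 to 2.25 CPM in CR and 31.7 to 57.3 CPM in WT. Nearly all of that sum in WT was COL1A1, with 1.11 and 1.64 CPM in CR and 57.1 and 31.4 CPM in WT, while PDGFRA had 0.478 and 0.614 CPM in CR and 0.171 and 0.251 CPM in WT, and DCN and LUM were at 0. The part of these differences in the results was not tested.

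Of the 37 genes, 1 rose in CR, 0 fell and 36 did not pass the test (quasi-likelihood test in edgeR, with p-values adjusted by Benjamini and Hochberg over all 17304 genes and a threshold of 0.05). FANCI, which pairs with FANCD2 in the clamp that encloses DNA at a crosslink, was the gene that rose. Over all genes tested, 13.5% were called, 5.44% higher and 8.1% lower in CR, against 2.7% of these 37. At an unadjusted p of at most 0.05 there were 3 of the 37 (8.11%), with a background of 26.1%. DESeq2 called 1 of the 37 (background 14.4% of the same 17304 genes) and limma-voom called 1 (13.3%), in each case FANCI. The same 1 gene higher and 0 lower were called under every other scaling, filter and fit of all 4 libraries. The shares of all genes called higher and lower were 5.55% and 8.03% with RLE factors, 5.92% and 7.73% with upper quartile factors, and 5.94% and 7.68% with library size alone. When every gene with a count was kept they were 4.42% and 5.75%, and under a stricter filter 5.69% and 8.16%. They were 4.95% and 7.39% of the 20661 genes to which DESeq2 gave an adjusted p, 5.55% and 7.77% with limma-voom, 7.27% and 8.77% with the replicate number as a block, and 9.66% and 10.4% with those numbers crossed.

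The differences were small as well as few. The fitted log2 fold changes (CR over WT) ran from -0.89 for FANCF to 0.99 for FANCI, with a median of 0.12, beside a median of -0.0065 over all genes tested. Positive values numbered 21 and negative values 16. A fitted change of 2-fold or more was seen in 0 of the 37 genes and in 20.7% of all genes tested. Among genes within the same range of mean log2 CPM the share was 12.6%. The 0 is a matter of the threshold for FANCI, which was at 0.98 with DESeq2 but at 1.01 with the stricter filter, 1.02 with limma-voom, 1.02 with the replicate block and 1.04 with upper quartile factors, where 2-fold is a log2 value of 1. Limma-voom's 95% interval lay wholly inside 2-fold either way for 26 of the 37 genes (70.3%), against 40.2% of all genes and 56.7% of those within the same range of mean level. For the other 11 genes, among them BRCA2, USP1 and WRN, a 2-fold difference was not outside the interval.

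**Figure D1:**
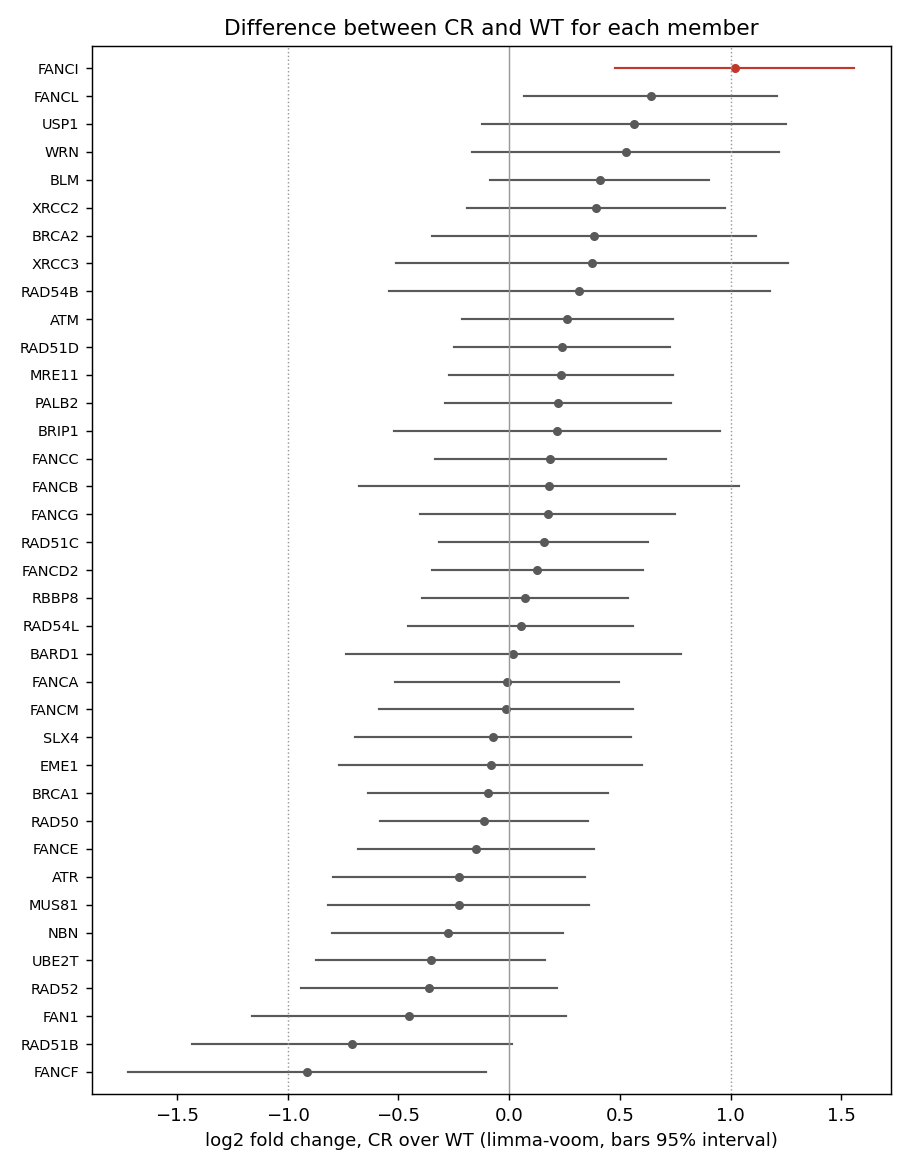
Log2 fold change of each of the 37 genes, CR over WT, with limma-voom's 95% interval as a bar, ordered by value. The solid line marks no difference, the dotted lines 2-fold either way, and red a limma-voom adjusted p of at most 0.05, which only FANCI reached (0.48 to 1.56).

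In the values themselves, both CR libraries lay above both WT libraries for 12 genes (32.4%, background 27%) and below them for 6 (16.2%, background 28.2%), and the groups overlapped for 19. Such separation was also common elsewhere: 55.3% of all genes tested were separated in one direction or the other, against 48.6% of the 37. Separation together with a fold of at least 1.5 in summed counts was found for 4 genes (10.8%, background 32.6%). These were FANCI and FANCL, higher in CR, and FANCF and RAD51B, lower in CR.

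**Figure D2:**
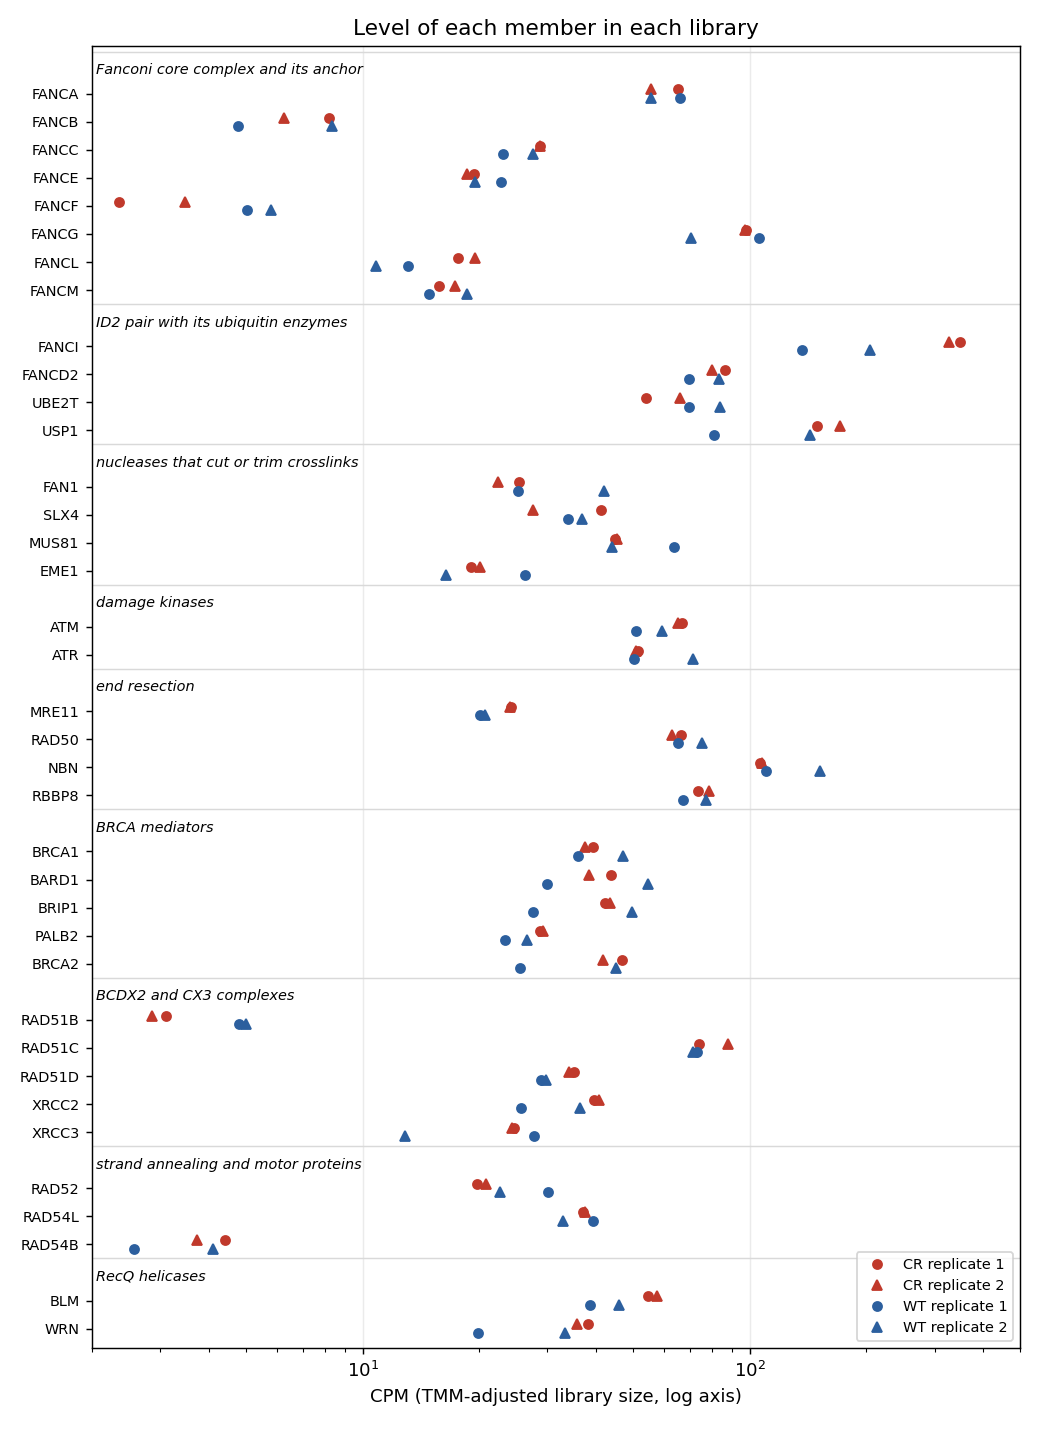
CPM of each gene in each library on a log axis, grouped by role, with CR in red and WT in blue and with circles for replicate 1 and triangles for replicate 2. The CR points of most genes lie close together while the WT points are often farther apart, and FANCI stands to the right with its CR libraries at 349.9 and 326 CPM.

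FANCI (chromosome 15, 89243949 to 89317261 in GENCODE 29 on GRCh38) carried the one call. It had 349.9 and 326 CPM in CR replicates 1 and 2, against 136 and 204 CPM in WT replicates 1 and 2. Both CR libraries were above both WT libraries, and the WT libraries differed from each other by more than the CR libraries did. The means were 338 ± 16.9 CPM in CR and 170.0 ± 47.9 CPM in WT (SD, n = 2 libraries each), and the summed counts were 1.98-fold higher in CR (log2 fold change 0.99, SE 0.23; edgeR adjusted p = 0.0324). FANCI supplied 18.0% and 16.9% of the summed CPM of the 37 genes in CR replicates 1 and 2, against 8.74% and 11.1% in WT replicates 1 and 2. Without it the other 36 summed to 1594 and 1602 CPM in CR and 1421 and 1638 CPM in WT, where the groups overlapped.

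The call was lost when CR replicate 1 or CR replicate 2 was left out. In these fits the lone CR library is assumed to vary like the WT pair, whose libraries differed more. The log2 fold change stayed near the 0.99 of the full fit. Without CR replicate 1 the log2 fold change was 0.94 and the edgeR adjusted p = 0.115, and without CR replicate 2 they were 1.05 and 0.0513. Some exons of FANCI overlap POLG, the mitochondrial DNA polymerase, on the other strand: 458 bases, or 5.9% of the exonic bases of FANCI. POLG had 154 and 134 CPM in CR and 122 and 106 CPM in WT, both CR values above both WT values, without passing (edgeR adjusted p = 0.342).

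The direct partners of FANCI did not pass. FANCD2, its ubiquitinated partner, had 86.4 and 80.0 CPM in CR replicates 1 and 2, against 69.6 and 83.2 CPM in WT replicates 1 and 2. The groups overlapped, and limma-voom's 95% interval for the log2 fold change was -0.35 to 0.60. The ratio of FANCI to FANCD2 counts within a library was 4.05 and 4.08 in CR replicates 1 and 2, against 1.96 and 2.45 in WT replicates 1 and 2. A ratio within a library does not depend on how libraries were scaled, and here both CR ratios were above both WT ratios. Per length of exon, FANCI stood at 43.5 RPKM in CR and 21.9 RPKM in WT, and FANCD2 at 9.93 RPKM in CR and 9.12 RPKM in WT.

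USP1, the protease that removes ubiquitin from FANCD2, had 149 and 170.5 CPM in CR replicates 1 and 2, against 81.0 and 143 CPM in WT replicates 1 and 2. Both CR values were above both WT values, WT replicate 1 was far below WT replicate 2, and the test was not passed (log2 fold change 0.51, edgeR adjusted p = 0.33). UBE2T, the ubiquitin-conjugating enzyme of the reaction, had 54.1 and 65.9 CPM in CR replicates 1 and 2, against 69.5 and 83.8 CPM in WT replicates 1 and 2. Here both CR values were below both WT values, again without passing (log2 fold change -0.35, edgeR adjusted p = 0.386). The USP1 to UBE2T ratio of counts was 2.75 and 2.59 in CR replicates 1 and 2, against 1.17 and 1.70 in WT replicates 1 and 2. With USP1 higher and UBE2T lower in both CR libraries, that ratio was bound to separate the groups. These ratios were chosen after values were seen and were not tested; with 2 libraries against 2, an exact permutation test cannot give a two-sided p under 0.333.

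**Figure D3:**
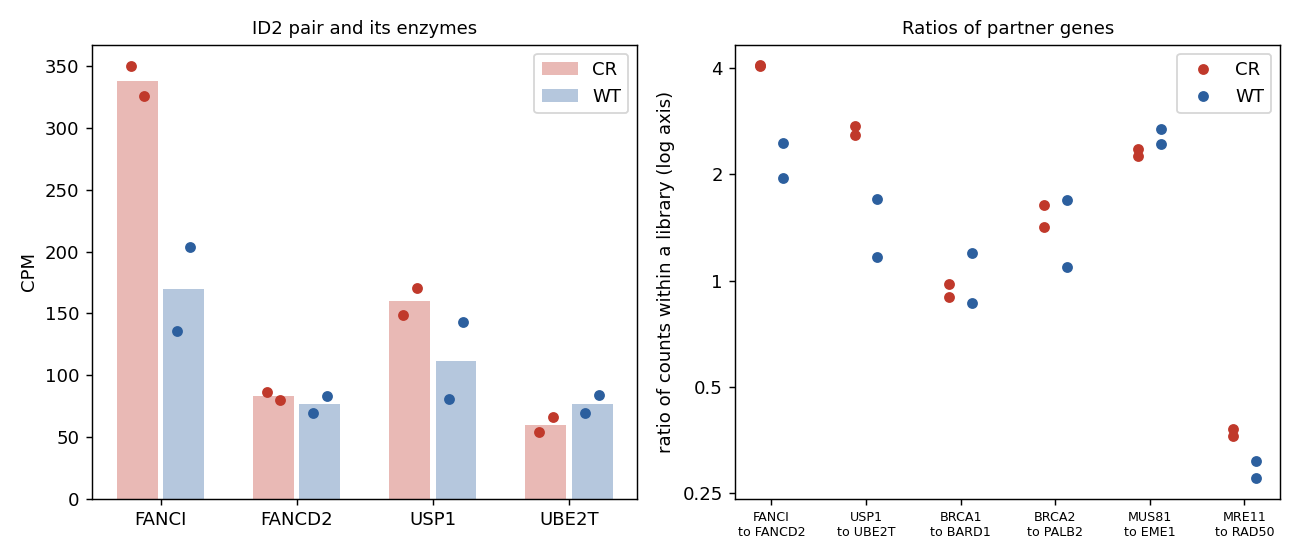
Left, CPM of FANCI, FANCD2, USP1 and UBE2T, with bars for the mean of 2 libraries and points for the libraries. Right, ratios of counts of partner genes within each library on a log axis. The FANCI to FANCD2 ratio is 4.05 and 4.08 in CR and 1.96 and 2.45 in WT. USP1 to UBE2T, MUS81 to EME1 and MRE11 to RAD50 also do not overlap between groups, while BRCA1 to BARD1 and BRCA2 to PALB2 do. No share over other gene pairs is given beside these ratios, and none was tested.

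In the core complex, 0 of 8 genes passed and the nearest to the threshold went in opposite directions. FANCL, the ubiquitin ligase subunit, had 17.6 and 19.5 CPM in CR replicates 1 and 2, against 13.1 and 10.8 CPM in WT replicates 1 and 2. Both CR values were higher (log2 fold change 0.64, SE 0.24; edgeR adjusted p = 0.154). FANCF, an adaptor that holds subunits of the complex together, had 2.35 and 3.48 CPM in CR replicates 1 and 2, against 5.01 and 5.78 CPM in WT replicates 1 and 2. Both CR values were lower, with a log2 fold change of -0.89 and an SE of 0.35 (edgeR adjusted p = 0.162), from 59 and 85 counts in CR and 117 and 138 counts in WT. The FANCL to FANCF ratio of counts was 7.51 and 5.61 in CR replicates 1 and 2, against 2.61 and 1.88 in WT replicates 1 and 2. With FANCL higher and FANCF lower in both CR libraries, this ratio was bound to separate the groups. It was chosen after values were seen and was not tested.

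FANCL shares 452 exonic bases (18.7% of its own) with VRK2 on the other strand. VRK2 had 22.1 and 21.4 CPM in CR and 23.3 and 34.4 CPM in WT, not passing and with its CR values below its WT values. FANCF shares 333 bases (11.3%) with GAS2, which had 3 to 10 counts in a library.

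The other 6 core genes showed no separation by 1.5-fold. FANCA, the subunit most often mutated in Fanconi anaemia, had 65.3 and 55.6 CPM in CR and 66.1 and 55.6 CPM in WT, with nearly equal group means. FANCG, which binds FANCA, had 97.7 and 96.9 CPM in CR and 105 and 70.6 CPM in WT, and WT replicates 1 and 2 lay on either side of both CR libraries. FANCC and FANCE, which bind each other and lead to FANCD2, had 28.7 and 28.7 CPM in CR and 23.0 and 27.6 CPM in WT for FANCC, and 19.4 and 18.6 CPM in CR and 22.8 and 19.5 CPM in WT for FANCE. FANCB, which joins FANCL in the catalytic module, had 8.16 and 6.26 CPM in CR and 4.76 and 8.33 CPM in WT. FANCM, the DNA translocase that anchors the complex, had 15.7 and 17.3 CPM in CR and 14.9 and 18.6 CPM in WT. FANCA shares 23.6% of its exonic bases with ZNF276 on the other strand.

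The promoters of FANCL, FANCF, FANCD2 and USP1 are shown. FANCL and FANCF are the core genes with the largest differences in either direction. FANCD2 is the partner of FANCI, and USP1 is an enzyme that acts on the pair. UBE2T, the other enzyme described above, was matched but is not shown. Each is the 250 bases before the start in the RefSeq table (GRCh38.p14), written 5′ to 3′ on the strand of the gene, with capitals marking CCAAT or its reverse complement ATTGG.
FANCL (chr2:58241326-58241575, minus strand): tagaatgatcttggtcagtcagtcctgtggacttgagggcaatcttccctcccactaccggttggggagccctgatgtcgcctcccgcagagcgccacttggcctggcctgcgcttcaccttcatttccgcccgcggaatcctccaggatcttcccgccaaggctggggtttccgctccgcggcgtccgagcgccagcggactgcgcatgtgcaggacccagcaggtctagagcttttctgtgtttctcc
FANCF (chr11:22625824-22626073, minus strand): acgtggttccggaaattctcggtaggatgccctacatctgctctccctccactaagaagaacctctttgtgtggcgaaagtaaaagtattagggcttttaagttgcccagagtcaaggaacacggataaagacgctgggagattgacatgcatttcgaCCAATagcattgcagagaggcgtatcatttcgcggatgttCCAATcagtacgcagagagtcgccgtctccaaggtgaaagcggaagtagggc
FANCD2 (chr3:10026187-10026436, plus strand): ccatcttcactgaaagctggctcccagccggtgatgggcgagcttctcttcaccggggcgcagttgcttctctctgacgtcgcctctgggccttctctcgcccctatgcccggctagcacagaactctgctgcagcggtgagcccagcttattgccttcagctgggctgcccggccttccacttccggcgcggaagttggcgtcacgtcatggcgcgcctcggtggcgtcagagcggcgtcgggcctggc
USP1 (chr1:62436145-62436394, plus strand): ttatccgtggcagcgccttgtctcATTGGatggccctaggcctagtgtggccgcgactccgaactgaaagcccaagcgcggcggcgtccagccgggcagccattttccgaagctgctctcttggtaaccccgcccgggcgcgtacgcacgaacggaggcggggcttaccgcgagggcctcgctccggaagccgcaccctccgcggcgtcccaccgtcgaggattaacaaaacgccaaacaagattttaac

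FANCF held 2 matches to CCAAT, USP1 held 1, and FANCL and FANCD2 held 0. The window of UBE2T, not shown, held 2. The table matched 33 of the 37 genes; FANCI, NBN, RAD54B and WRN were not matched. On either strand, CCAAT was found in 13 of the 33 windows (39.4%), against 33% of 27305 windows in the table. The E2F-type letters TTTCCCGC, TTTGGCGC, TTTCGCGC or TTTGCCGC were found in 2 windows (6.06%, against 2.79%), those of FANCA and FANCC. The CHR letters TTTGAA or TTCGAA, none of which contains or lies within another of these strings, were found in 4 (12.1%, against 14.6%). These are letter matches only.

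The nucleases of crosslink unhooking gave 0 calls among 4 genes, and all 4 fitted values were below 0. FAN1, a nuclease that binds ubiquitinated FANCD2, had 25.3 and 22.3 CPM in CR replicates 1 and 2, against 25.2 and 41.9 CPM in WT replicates 1 and 2. Only WT replicate 2 stood apart. SLX4, the scaffold for structure-specific nucleases, had 41.2 and 27.5 CPM in CR and 34.0 and 36.9 CPM in WT. Here CR replicate 2 was the low library. MUS81 and its partner EME1, which cut branched DNA, had 44.9 and 45.4 CPM in CR and 63.8 and 43.9 CPM in WT for MUS81, and 19.0 and 20.1 CPM in CR and 26.2 and 16.4 CPM in WT for EME1. FAN1 shares 24.3% of its exonic bases with MTMR10, MUS81 13.9% with CFL1 and EME1 16.4% with LRRC59, all on the other strand, and it is not given whether counting used strand. The MUS81 to EME1 ratio of counts was 2.37 and 2.26 in CR replicates 1 and 2, against 2.43 and 2.68 in WT replicates 1 and 2.

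The kinases that signal damage did not pass. ATM, activated by double-strand breaks, had 66.9 and 65.1 CPM in CR and 50.9 and 59.4 CPM in WT, with CR above WT and a 95% interval of -0.21 to 0.74 on the log2 scale. ATR, activated by single-stranded DNA at stalled forks, had 51.4 and 50.8 CPM in CR and 50.3 and 71.2 CPM in WT, with overlap.

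Of the 4 genes of end resection 0 passed. MRE11, the nuclease of the MRN complex, had 24.1 and 24.0 CPM in CR replicates 1 and 2, against 20.1 and 20.7 CPM in WT replicates 1 and 2. The replicates of each group were close and the groups did not overlap, but the difference was small (log2 fold change 0.24, edgeR adjusted p = 0.577). RAD50, the ATPase of the complex, had 66.4 and 63.0 CPM in CR and 65.4 and 75.1 CPM in WT, and NBN, its adaptor to ATM, had 106 and 107 CPM in CR and 110.1 and 152 CPM in WT. RBBP8 (CtIP), which starts resection, had 73.5 and 78.2 CPM in CR and 67.3 and 77.2 CPM in WT and an interval of -0.39 to 0.54. The MRE11 to RAD50 ratio of counts was 0.362 and 0.381 in CR replicates 1 and 2, against 0.308 and 0.276 in WT replicates 1 and 2. The NBN to RAD50 ratio was 1.60 and 1.71 in CR replicates 1 and 2, against 1.68 and 2.03 in WT replicates 1 and 2, with overlap.

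Among the BRCA proteins and their partners 0 of 5 genes passed. BRCA1, the ligase that promotes resection and recruits PALB2, had 39.4 and 37.6 CPM in CR replicates 1 and 2, against 36.0 and 47.1 CPM in WT replicates 1 and 2. The CR values lay between the WT values, and the interval of the log2 fold change was -0.64 to 0.45. BARD1, its obligate partner, had 43.7 and 38.4 CPM in CR and 29.9 and 54.5 CPM in WT, and BRIP1, a helicase bound by BRCA1, had 42.3 and 43.6 CPM in CR and 27.5 and 49.6 CPM in WT. BRCA2, the tumour suppressor that mediates strand exchange, had 46.9 and 41.7 CPM in CR replicates 1 and 2, against 25.4 and 45.1 CPM in WT replicates 1 and 2. WT replicate 1 was low and WT replicate 2 lay within the CR range. PALB2, the bridge between BRCA1 and BRCA2, had 28.7 and 29.3 CPM in CR and 23.3 and 26.6 CPM in WT. In BARD1, BRIP1 and BRCA2 the WT libraries differed more than the groups did.

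Of the 5 paralog genes (RAD51B, RAD51C, RAD51D, XRCC2 and XRCC3), whose products form complexes needed for recombination, 0 passed. RAD51B had 3.11 and 2.86 CPM in CR replicates 1 and 2, against 4.80 and 4.98 CPM in WT replicates 1 and 2. These rest on 70 to 119 counts a library, and although the groups were separated the test was not passed (log2 fold change -0.71, SE 0.31; edgeR adjusted p = 0.212). RAD51C, shared by both paralog complexes, had 73.8 and 87.7 CPM in CR and 73.1 and 71.1 CPM in WT. RAD51D had 35.1 and 34.2 CPM in CR and 28.9 and 29.8 CPM in WT, and XRCC2, its binding partner, had 39.6 and 40.7 CPM in CR and 25.7 and 36.4 CPM in WT. For RAD51C, RAD51D and XRCC2 both CR values lay above both WT values. XRCC3, which binds RAD51C, had 24.6 and 24.3 CPM in CR and 27.8 and 12.9 CPM in WT, so its 2 WT libraries lay on either side of CR. The XRCC3 to RAD51C ratio of counts was 0.333 and 0.278 in CR replicates 1 and 2, against 0.380 and 0.181 in WT replicates 1 and 2, and the XRCC2 to RAD51D ratio 1.13 and 1.19 in CR replicates 1 and 2, against 0.889 and 1.22 in WT replicates 1 and 2, both overlapping. The exons of XRCC3 share 76.7% of their bases with KLC1 on the other strand.

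RAD52, a strand-annealing protein, had 19.7 and 20.8 CPM in CR and 30.1 and 22.6 CPM in WT, with both CR values lower and no call (edgeR adjusted p = 0.405). RAD54L, a motor protein of strand exchange, had 37.0 and 37.5 CPM in CR and 39.2 and 32.9 CPM in WT; 25.1% of its exonic bases are shared with LRRC41 on the other strand. RAD54B, its relative, had 4.42 and 3.72 CPM in CR and 2.57 and 4.10 CPM in WT; 59.1% of its exonic bases are shared with FSBP on the same strand, so its level is uncertain. BLM, the helicase that dissolves joined recombination intermediates, had 54.5 and 57.7 CPM in CR and 38.7 and 46.0 CPM in WT, and WRN, the helicase lost in Werner syndrome, had 38.3 and 35.7 CPM in CR and 19.8 and 33.3 CPM in WT. Both helicases had CR above WT without passing (edgeR adjusted p = 0.301 for BLM and 0.376 for WRN).

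Levels per length of exon (RPKM, counted over all annotated exons of a gene) kept nearly the same order in both lines. By group mean UBE2T stood highest in WT, with 36.3 RPKM in CR and 46.4 RPKM in WT. Next there came USP1 (37.4 RPKM in CR and 26.2 RPKM in WT), FANCG (26.9 RPKM in CR and 24.4 RPKM in WT) and FANCI. After UBE2T, neither WT library held that order of means. USP1 had 19.0 and 33.5 RPKM in WT replicates 1 and 2, FANCG 29.2 and 19.5 RPKM, and FANCI 17.5 and 26.3 RPKM. In CR the order was FANCI, USP1, UBE2T and FANCG, but the libraries of FANCI, USP1 and UBE2T were close: 42.0 to 45.1, 34.9 to 40.0 and 32.7 to 39.9 RPKM. NBN, RBBP8, RAD51C and RAD54L held places 5 to 8 in both lines. RAD54B (0.766 RPKM in CR and 0.628 RPKM in WT) and RAD51B (0.399 RPKM in CR and 0.654 RPKM in WT) were the lowest in both. RAD54B shares 59.1% of its exonic bases with FSBP on the same strand, so its place is uncertain. XRCC3 shares 76.7% with KLC1 on the other strand, so its place is uncertain if counting ignored strand, which is not given. The order of the 37 group means correlated between CR and WT with Spearman's rho of 0.958, across genes and as a description only.

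Replicate spread differed between the lines, and for these genes it went with base composition. The median absolute difference in log2 CPM between replicates was 0.083 in CR and 0.32 in WT, beside 0.17 in CR and 0.44 in WT over all genes tested. A difference of 1.5-fold or more between replicates was found for 0 of the 37 genes in CR (background 10.6%) and for 10 (27%) in WT (background 37.4%). Among the 9 genes whose longest transcript is over 50% GC, WT replicate 2 was below WT replicate 1 in 7. Among the other 28, it was above in 25. XRCC3, at 63.8% GC, differed by -1.11 between the WT libraries on the log2 scale, and BRCA2, at 36.3% GC, by 0.83.

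Across the 37 genes the WT replicate difference correlated with GC content at r = -0.76 (Spearman's rho -0.71), and with log2 transcript length at r = 0.39. The CR replicate difference correlated with GC content at r = -0.13, and with log2 transcript length at r = -0.37, of opposite sign to WT. Over 17229 genes tested the values for GC content were r = -0.47 in WT and -0.096 in CR. Those for log2 transcript length were 0.26 in WT and -0.18 in CR, so the opposite signs were also seen over all genes. These are descriptions across genes that share the same libraries. The CR minus WT fold changes of the 37 correlated with GC content at r = -0.18.

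**Figure D4:**
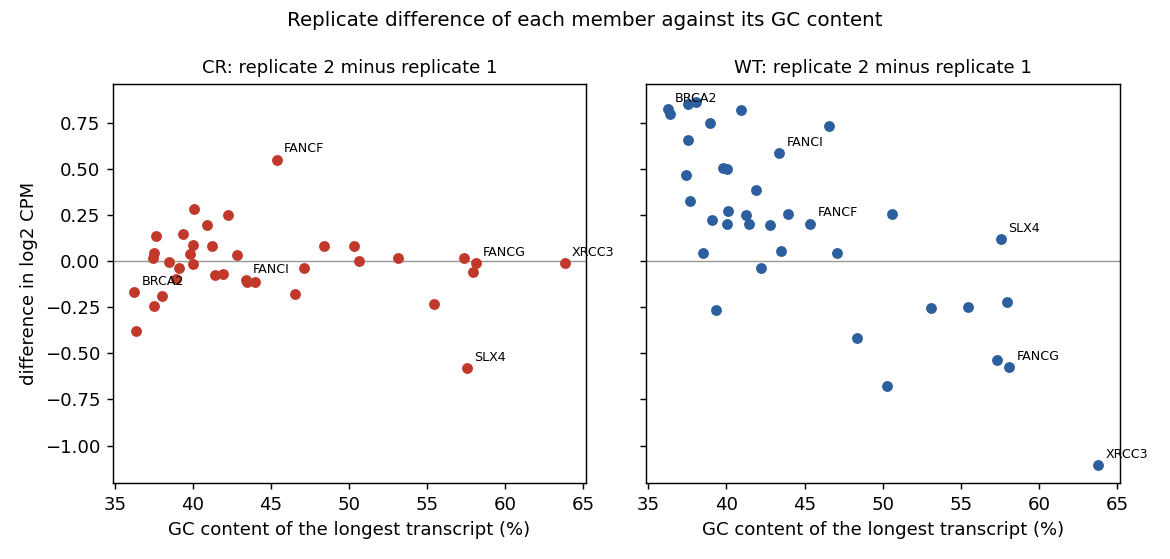
Difference in log2 CPM between replicate 2 and replicate 1 for each of the 37 genes against the GC content of its longest transcript, for CR on the left and WT on the right. The CR points stay near 0, apart from FANCB, FANCF and SLX4, while the WT points slope from above 0 at low GC content to below 0 at high GC content.

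With GC content and length offsets in the fit, an alternative added after the data were seen, the 37 genes again gave 1 call higher and 0 lower (background 9.14% and 12%). FANCI had a log2 fold change of 0.99 (edgeR adjusted p = 0.00577). FANCL, FANCF and RAD51B did not pass in it (edgeR adjusted p = 0.12, 0.0895 and 0.116).

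Which of the 37 genes were called differed with the WT library used. Without WT replicate 1, a fit in which the lone WT library is assumed to vary like the CR pair, 4 were higher and 7 lower (background 19.6% and 20.4%). Without WT replicate 2, 11 were higher and 5 lower (background 21% and 21.8%). These 2 fits share both CR libraries. FANCI had a log2 fold change of 0.73 without WT replicate 1 and 1.31 without WT replicate 2. FANCL had a log2 fold change of 0.77 without WT replicate 1 and 0.51 without WT replicate 2. FANCF had a log2 fold change of -0.99 without WT replicate 1 and -0.78 without WT replicate 2. RAD51B had a log2 fold change of -0.74 without WT replicate 1 and -0.69 without WT replicate 2. BARD1 was called in opposite directions, with -0.41 without WT replicate 1 and 0.45 without WT replicate 2. In each of the fits without a CR library 0 of the 37 were called, against 2.94% to 3.33% of all genes higher and 4.83% to 5.07% lower. Of the 37 fitted directions, 20 were the same in the full fit and in all 4 fits that left out a library. No share over all genes is given beside this count, so it is not read as a trait of these genes.

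Other genes of crosslink repair and recombination were a list of 63, of which 60 were tested. Of these 0 rose, 1 fell and 59 did not pass (background 5.44% higher and 8.1% lower), with a median log2 fold change of 0.016. SAMHD1, a nucleotide hydrolase that also promotes end resection, was the gene that fell. It had 29.6 and 27.8 CPM in CR replicates 1 and 2, against 67.5 and 88.4 CPM in WT replicates 1 and 2 (log2 fold change -1.44, SE 0.23; edgeR adjusted p = 0.00804). The CR values were close to each other and far below both WT values, but the call was lost without CR replicate 2 (edgeR adjusted p = 0.0695).

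MCM8, a helicase of recombination, had 43.0 and 41.5 CPM in CR and 62.2 and 86.3 CPM in WT. It passed in DESeq2 but not in the main edgeR fit (adjusted p = 0.0448 in DESeq2 and 0.0722 in edgeR). In edgeR it did pass with no low-count filter, with the crossed block and with the GC content and length offsets (edgeR adjusted p = 0.0176, 0.0285 and 0.00481). CHEK2, the kinase downstream of ATM, had 26.3 and 32.4 CPM in CR and 55.3 and 41.6 CPM in WT (edgeR adjusted p = 0.117). With the GC content and length offsets CHEK2 passed (edgeR adjusted p = 0.0332). SHLD1, a shieldin subunit that restrains resection, had 2.19 and 2.37 CPM in CR and 4.11 and 3.98 CPM in WT (edgeR adjusted p = 0.173). FAAP24, the partner of FANCM, had 9.95 and 13.9 CPM in CR and 6.85 and 8.17 CPM in WT, and RAD51AP1, a cofactor of strand exchange, had 47.7 and 50.8 CPM in CR and 23.5 and 42.6 CPM in WT, both with CR above WT and neither passing (edgeR adjusted p = 0.205 and 0.312).

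Transcripts of many of the 37 genes are known to peak around S phase, so genes of replication and proliferation were read beside them. In cultures, fewer cells in S phase and less RNA per cell cannot be told apart. Of 32 such genes 1 rose, 2 fell and 29 did not pass (background 5.44% higher and 8.1% lower), with a median log2 fold change of -0.19. Negative values numbered 21 and positive values 11. Both CR libraries lay below both WT libraries for 13 of the 32 (background 28.2%) and above them for 7 (background 27%). The summed level of the 32 was 5150 and 4923 CPM in CR and 5364 and 5991 CPM in WT. MCM2, a subunit of the replicative helicase, had 206 and 191 CPM in CR replicates 1 and 2, against 123 and 119 CPM in WT replicates 1 and 2 (edgeR adjusted p = 0.0406). PCNA, the replication clamp, had 162 and 173 CPM in CR and 269.9 and 317 CPM in WT (edgeR adjusted p = 0.0276), and RRM1, a subunit of ribonucleotide reductase, had 99.6 and 107 CPM in CR and 215 and 269 CPM in WT (edgeR adjusted p = 0.00813). The calls of MCM2 and PCNA were lost without CR replicate 1 and without CR replicate 2 (edgeR adjusted p = 0.519 and 0.34 for MCM2, 0.325 and 0.234 for PCNA). That of RRM1 was lost without CR replicate 1 (0.0529), and MCM2 did not pass with the replicate block (0.0705). GINS1, another of the 32, had 26.8 and 28.5 CPM in CR and 40.1 and 61.7 CPM in WT. It passed in DESeq2 but not in the main edgeR fit (adjusted p = 0.0417 in DESeq2 and 0.0844 in edgeR). The rise of FANCI thus stood beside a rise in MCM2, lower PCNA and RRM1, and mostly negative values in this list. The part of proliferation in the rise of FANCI was not tested.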

How the data were processed

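Per the labels, polyadenylated RNA was made into strand-marked libraries. The authors deposited raw counts per Ensembl gene and a normalized signal, which equals those counts divided by 1 factor per library and was used only as an alternative (log2(value + 1)). STAR 2.5.1a, HTSeq, DESeq and build GRCh38.p7 are named, per the submitters' processing notes, with no role or order; the strand setting is not given in the sources used here.

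Rows without a symbol held 0.436% to 0.535% of the counts and stayed in the tests. Genes passing filterByExpr (minimum count 10) were fitted on all 4 libraries with edgeR 4.0.16 (TMM, robust quasi-likelihood, group as the only term, two-sided; R 4.3.3), with limma 3.58.1 voom for 95% intervals and DESeq2 1.42.0 as an alternative. CPM uses TMM-adjusted library sizes, and log2 CPM a prior count of 2. SE is the log2 fold change over the square root of F. The p-values rest on 2 cultures of 1 line a group. Alternatives were other scaling factors and filters, a replicate block and leaving out each library; GC content and length offsets and crossed numbers were added after the data were seen. Lengths, GC content and overlaps came from GENCODE 29.

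The members and lists were chosen with earlier results of these data known. Named in full were genes called, at an unadjusted p of at most 0.05, called by DESeq2, or separated by 1.5-fold; the other members are also given by library, and of the other pathway genes those called and the smallest p-values, up to 6 in all. Lists: the 37 genes, 63 other pathway genes, 32 proliferation genes and cell type markers. The labels do not say that replicate numbers pair libraries, so the numbers were not taken as pairs. The replicate differences of CR and of WT had a weak negative correlation across genes (-0.17).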

Additional observations from a re-analysis of the deposited data

How the results depend on the processing

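FANCI was called with RLE factors, upper quartile factors, library size alone, no low-count filter, the stricter filter of 1 CPM in 2 libraries, DESeq2, limma-voom, the replicate block, and the added crossed block and GC content and length offsets, with log2 fold changes of 0.98 to 1.04, and 0 of the 37 genes were called lower in these. The median of the 37 moved between -0.0033 (without WT replicate 1) and 0.17. With the replicate block the count was 1 higher and 0 lower, and the crossed pairing also gave 1 and 0. With only 2 numbers, and a weak negative correlation between the replicate differences of the groups, the block shows no pairing. Leaving out a library gave 0 to 11 higher and 0 to 7 lower among the 37, 0 to 9 higher and 0 to 11 lower among other pathway genes, 0 to 5 and 0 to 13 among proliferation genes, and 537 to 3864 and 883 to 4015 over all genes. Lower calls among other pathway genes were 2 with no low-count filter, 2 with DESeq2, 2 with the crossed block and 3 with the offsets, against 1. Among proliferation genes, higher calls were 0 with the replicate block and 2 with the offsets, against 1, and lower calls were 4 with no filter and 4 with the offsets, against 2. Higher calls over all genes were 1454 with no filter, 1671 with the crossed block and 1574 with the offsets, against 942. The cause was not tested. With 2 libraries a group and the WT spread seen here, a change of 2-fold was not outside the interval of 11 of the 37 genes.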
